A study of Danio rerio with 4 samples.

Results

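The genes described here encode Spt5, the protein altered in the zebrafish mutant foggy, and 8 of its working partners in transcription elongation: the histone chaperone Spt6 (supt6h), the kinase P-TEFb and its inhibitor (cdk9, ccnt2b, hexim1), subunits of the Paf1 complex (ctr9, cdc73, rtf1) and the bromodomain protein Brd2 (brd2a). They were matched by gene symbol in the array's annotation, with no threshold on the measured values, but the list was chosen with earlier results of these data known. These 9 of the 8793 named genes on the array were read by 13 of the 15617 probe sets there, and 12 of the 13 were bright enough to be tested. The samples were RNA from zebrafish embryonic brain, 1 array of the wild type and 3 arrays of foggy mutants, all labelled 36 (with the unit h on the wild-type sample only). The labels name no foggy allele, do not say whether the mutants were homozygous, and do not say whether the 3 mutant samples came from separate clutches, so the p-values below reflect the spread among these samples alone, part or all of which may be technical.

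RNA polymerase II pauses soon after it leaves a promoter. Spt5 and Spt4 form the factor DSIF, which holds the polymerase there together with the NELF complex. P-TEFb, made of the kinase Cdk9 and a cyclin T, phosphorylates Spt5, NELF and the polymerase tail, after which NELF leaves and Spt5 travels with the polymerase as an elongation factor. Hexim1 keeps P-TEFb inactive within a small nuclear RNA particle, BET proteins bind acetylated histones and are linked to P-TEFb recruitment, and the Paf1 complex and Spt6 accompany the polymerase through nucleosomes. The foggy gene is known in zebrafish for its effect on dopamine and serotonin neurons.

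Transcripts of 4 of the 9 genes were higher in the foggy brain samples, which also held RNA of other tissues, on 1 probe set each. They were brd2a (1.85-fold, on 1 of its 4 probe sets), hexim1 (1.48-fold), ctr9 (1.37-fold) and ccnt2b (1.29-fold). The other brd2a probe sets did not pass, and 1 of them lay below the wild type in all 3 foggy arrays. The supt5h transcript itself, and those of supt6h, cdk9, cdc73 and rtf1, did not pass the test in either direction. Of the 12 tested probe sets 4 were higher and 0 lower by limma at an adjusted p under 0.05, and 7 were higher and 0 lower at an unadjusted p under 0.05. Over all 10851 tested probe sets of the array, 2.36% were higher and 3.14% lower at the adjusted threshold, and 11.7% were higher and 8.89% lower at the unadjusted one. All 3 foggy arrays lay above the wild-type array at 11 of the 12 probe sets, against 36.1% of all tested probe sets, and all 3 lay below it at 1 of the 12, against 28.4%. Because the genes were chosen with earlier results known, these shares describe the list and do not test it. The median log2 difference, foggy minus wild type, was +0.26 over the 12 probe sets and +0.02 over all tested probe sets. All of these differences share the single wild-type array. The error therefore came from the foggy arrays, on the assumption that wild-type arrays scatter as much. Where that scatter was set to 2 times the foggy SD, 1 of the 4 calls was kept, that of brd2a, and without foggy array 1 the count was 8 higher of 12, where 10.9% of all tested probe sets were higher and 7.98% lower.

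**Figure D1:**
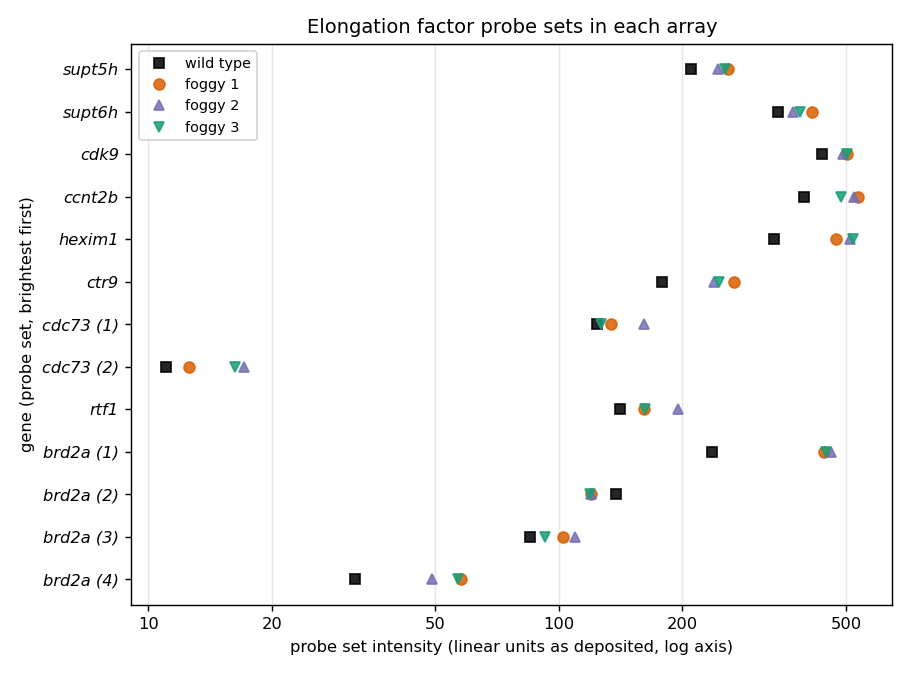
Deposited intensity (log axis) of the 13 probe sets in the wild-type array (black squares) and in the 3 foggy arrays (coloured symbols), with the probe sets of cdc73 and brd2a numbered from the brightest. The foggy arrays lie to the right of the wild-type array at every probe set except the second of brd2a, where they lie to the left.

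Values in this paragraph and those that follow are intensities on the linear scale as deposited, and log2 differences are of log2(intensity + 16.252), which understates the change of dim probe sets. The single supt5h probe set read 210 in wild type against 258, 245 and 254 in foggy. The 3 foggy values lay close together and above the wild-type value. The log2 difference was +0.25 (SE 0.0872, 95% interval 0.05 to 0.44) and was short of the threshold in limma (adjusted p = 0.137). It passed without foggy array 1 (adjusted p = 0.0447), and the adjusted p ran from 0.0447 to 1.0 over 9 alternatives. The level of a transcript checks the genotype only where the mutation alters the transcript, which the labels do not state. The other DSIF subunit gene, supt4h1, was not matched to a named probe set.

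Spt6 binds histones and the elongating polymerase and rebuilds nucleosomes behind it. Its gene supt6h read 342 in wild type against 414, 372 and 387 in foggy. The foggy arrays were all higher, and foggy array 1 was the highest. The log2 difference of +0.18 (SE 0.0836, 95% interval -0.0017 to 0.37) did not pass (adjusted p = 0.245).

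Among the P-TEFb genes, the inhibitor and a cyclin were higher while the kinase did not pass. The inhibitor gene hexim1 read 333 in wild type against 473, 513 and 521 in foggy. The lowest foggy value was well above the single wild-type value. All 3 foggy values lay above the wild type at 36.1% of all tested probe sets. The log2 difference was +0.57 (SE 0.0799, 95% interval 0.39 to 0.74, limma adjusted p = 0.00284). The doubled wild-type SD (adjusted p = 0.231) and a fit with no variance trend (adjusted p = 0.0766) each ended this call, within a range of 1.69e-08 to 0.231 over 9 alternatives.

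The cyclin T2 gene ccnt2b, whose product activates Cdk9, read 394 in wild type against 535, 523 and 485 in foggy. All 3 foggy values lay above the single wild-type value, as they did at 36.1% of all tested probe sets. Its log2 difference was +0.37 (SE 0.0785, 95% interval 0.19 to 0.54, limma adjusted p = 0.0244). The ccnt2b call ended without a dim filter (adjusted p = 0.0538), without the trend (0.168) and with the doubled SD (0.739), in a range of 1.88e-04 to 0.739. The kinase gene cdk9 read 438 in wild type against 504, 491 and 504 in foggy. The 3 foggy values were close together and above the wild type, by +0.18 on the log2 scale (SE 0.0701, 95% interval 0.03 to 0.34, limma adjusted p = 0.169). It passed without foggy array 1 (adjusted p = 0.0353, in a range of 0.0353 to 1.0). The 95% intervals of hexim1 and cdk9 did not overlap, whereas those of ccnt2b overlapped both. These intervals take the scatter of the foggy arrays for the wild type. With the doubled wild-type SD the SEs were wider, 0.144 for hexim1 and 0.126 for cdk9. The differences between genes were not tested.

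The Paf1 complex travels with the polymerase and promotes histone modification along genes. Its scaffold gene ctr9 read 178 in wild type against 268, 239 and 246 in foggy. All foggy values were higher, foggy array 1 most. The log2 difference was +0.46 (SE 0.0959, 95% interval 0.24 to 0.67, limma adjusted p = 0.0239). The same 3 settings ended the ctr9 call (adjusted p = 0.0501, 0.128 and 0.739), in a range of 7.65e-04 to 0.739.

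The gene rtf1, whose product contacts Spt5 in yeast and human cells, read 141 in wild type against 161, 195 and 162 in foggy. Foggy array 2 stood above the other foggy arrays. The log2 difference of +0.26 (SE 0.123, adjusted p = 0.264) did not pass, and passed without foggy array 1 (adjusted p = 0.0436, in a range of 0.0436 to 1.0). The brighter probe set of cdc73, the gene of the tumour suppressor parafibromin in humans, read 124 in wild type against 134, 161 and 126 in foggy. Foggy array 3 was nearly at the wild-type level and foggy array 2 was again the highest, and the log2 difference was +0.16 (SE 0.136, 95% interval -0.15 to 0.46, adjusted p = 0.573). The second cdc73 probe set was too dim to enter the test, with 11.0 in wild type against 12.5, 17.0 and 16.3 in foggy. Its log2 difference was +0.21, also with foggy array 2 highest, and it did not pass when no filter was applied (adjusted p = 0.658).

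**Figure D2:**
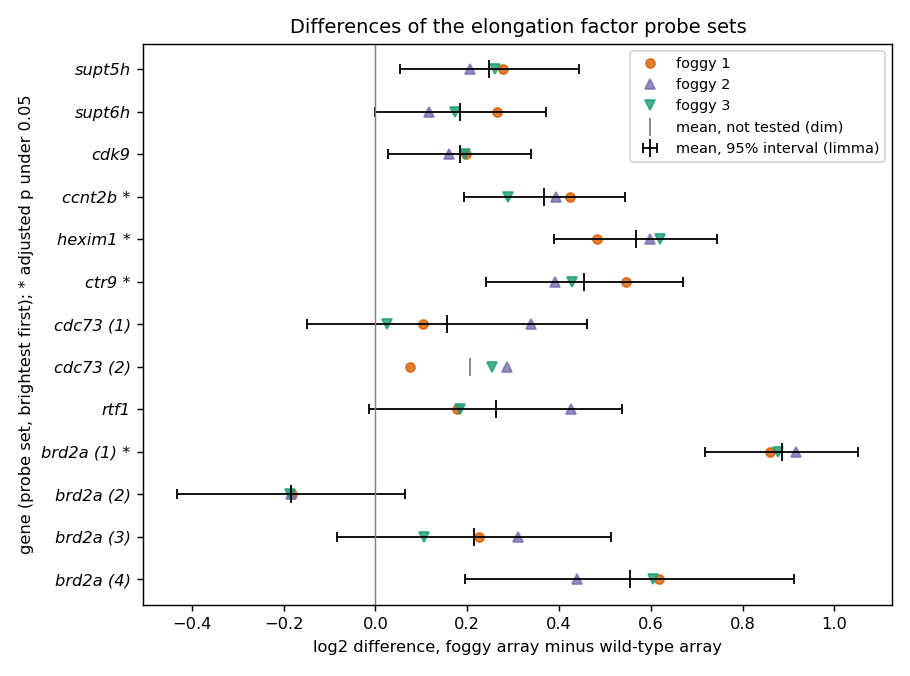
Log2 difference of each foggy array from the wild-type array (coloured symbols) for the 13 probe sets, with the mean and the 95% interval from limma (black) and stars at adjusted p under 0.05. The interval of the brightest brd2a probe set runs from 0.72 to 1.05, and that of its second probe set includes 0.

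The gene brd2a was read by 4 probe sets that did not move together. BET proteins such as Brd2 bind acetylated histone tails at active promoters. The brightest probe set read 236 in wild type against 441, 460 and 447 in foggy. The foggy arrays were nearly equal and far above the wild type. The log2 difference was +0.88 (SE 0.0750, 95% interval 0.72 to 1.05, limma adjusted p = 1.29e-04), the largest among the 13 probe sets. This was the one call among the 9 genes that held under all 9 alternatives, with adjusted p between 4.55e-11 and 0.0232.

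The second brd2a probe set read 138 in wild type against 120, 119 and 119 in foggy. These foggy values were almost identical and all below the wild type. The log2 difference of -0.18 (SE 0.111, 95% interval -0.43 to 0.06) did not pass (adjusted p = 0.389). The third read 84.9 in wild type against 102, 109 and 92.7 in foggy, +0.22 on the log2 scale (SE 0.134, adjusted p = 0.403). The faintest read 31.9 in wild type against 57.6, 48.9 and 56.9 in foggy. All 3 foggy arrays were higher at these last 2 probe sets, and the faintest had a log2 difference of +0.55 (SE 0.160, 95% interval 0.20 to 0.91) that did not pass (adjusted p = 0.0799). It passed without foggy array 1 (adjusted p = 0.0396, in a range of 0.0396 to 1.0).

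Within each array the ratio of the brightest to the second brd2a probe set can be formed without any scaling between arrays. This ratio was 1.71 in wild type and 3.69, 3.85 and 3.76 in the foggy arrays, so the 2 probe sets changed unequally in every foggy array. The ratio of the brightest to the third was 2.78 in wild type and 4.32, 4.21 and 4.82 in the foggy arrays. The ratio of the brightest to the faintest was 7.41 in wild type and 7.66, 9.40 and 7.86 in the foggy arrays. On the log2 scale the foggy arrays exceeded the wild type least for this last pair. The highest and lowest log2 differences of brd2a were 1.07 apart. Of 1055 genes with 2 or more tested probe sets, 4 (0.379%) had a spread at least as large, brd2a included, and the median spread was 0.15. The others were polr2a, si:ch211-243g18.2 and sox11b, named after their values were seen. Among the 50 genes with 4 or more tested probe sets the median spread was 0.33 and brd2a had the largest. Because brd2a was chosen with earlier results of these data known, these ranks describe it and do not test it. The sequences read by the 4 probe sets were not analysed here, and whether they report different transcripts of brd2a was not tested.

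**Figure D3:**
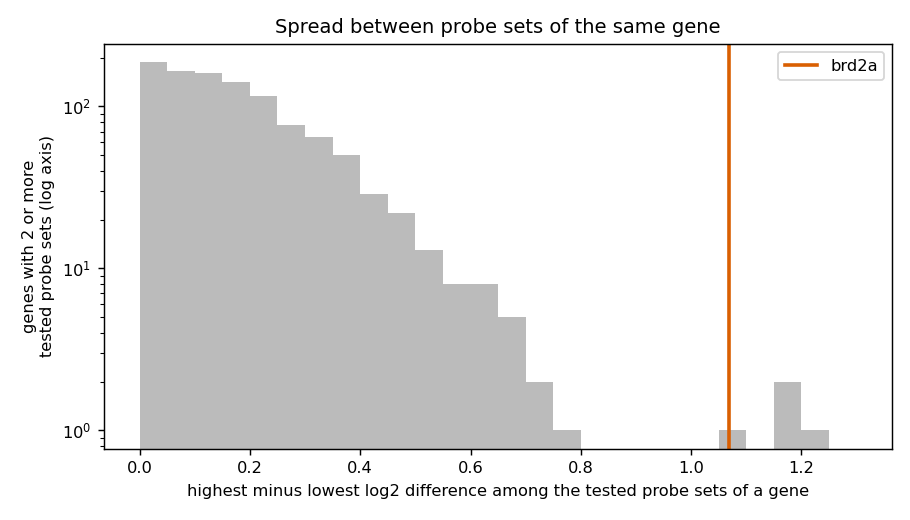
Number of genes (log axis) by the difference between the highest and the lowest log2 difference among their tested probe sets, for the 1055 genes with 2 or more. The line marks brd2a at 1.07, right of the main body of genes and beside 3 others with larger values.

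In the order of their log2 differences the probe sets ran from the brightest of brd2a through hexim1, the faintest of brd2a, ctr9, ccnt2b, rtf1, supt5h, the third of brd2a, the dim one of cdc73, supt6h, cdk9 and the brighter of cdc73 to the second of brd2a. The 95% intervals of each tested pair of neighbours in this order overlapped. The mean difference was above 0 at 11 of the 12 tested probe sets, and at 5921 of all 10851 tested probe sets of the array.

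A wider list of transcription elongation genes placed these values in their pathway. Of its 59 genes, 46 were matched to named probe sets, and 37 of those were outside the 9 genes above. Of the 48 tested probe sets of these others 1 was higher (2.08%, near the 2.36% of the whole array) and 0 were lower by limma, with 8 higher and 2 lower at an unadjusted p under 0.05 (11.7% and 8.89% over the array). Their median log2 difference was +0.07, and all 3 foggy arrays lay above the wild type at 20 (41.7%) and below it at 10 (20.8%). The 1 higher probe set was 1 of the pair for ssu72, which encodes a phosphatase of the polymerase tail. It read 214 in wild type against 329, 317 and 318 in foggy, +0.55 on the log2 scale (limma adjusted p = 0.00392). A fit with no variance trend (adjusted p = 0.0615) and the doubled wild-type SD (adjusted p = 0.289) each ended this call, in a range of 5.53e-06 to 0.289. The other ssu72 probe set read 298 and then 415, 340 and 363, a difference of +0.30 that did not pass (adjusted p = 0.131).

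The remaining genes of the Paf1 complex lay on both sides of 0. The brighter leo1 probe set, of a type that can be shared between transcripts of different genes, read 351 in wild type against 389, 415 and 445 in foggy (log2 difference +0.23, adjusted p = 0.160), and the other leo1 probe set differed by +0.43 (adjusted p = 0.137). The 2 paf1 probe sets differed by +0.24 and +0.26 (adjusted p = 0.158 and 0.130). In contrast skic8, whose product also belongs to the cytoplasmic Ski complex, read 403 in wild type against 369, 320 and 339 in foggy, a difference of -0.23 (adjusted p = 0.195). None of these 5 probe sets passed, and all 5 passed without foggy array 1 (adjusted p between 0.0026 and 0.0366), a fit in which 10.9% of all tested probe sets were higher and 7.98% lower.

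The 4 NELF genes, whose products pause the polymerase together with DSIF, ranged from -0.16 for nelfb to +0.14 for nelfa, with nelfcd at -0.12 and nelfe at +0.05. Of these 0 of 4 passed by limma at an adjusted or an unadjusted p under 0.05. Over the array 2.36% were higher and 3.14% lower at the adjusted threshold, and 11.7% and 8.89% at the unadjusted one. A count of 0 of 4 therefore does not set these genes apart from the array. Among the other P-TEFb genes the cyclin gene ccnt1 differed by +0.23 (adjusted p = 0.279) and ccnt2a, the paralogue of ccnt2b, by -0.03 (adjusted p = 0.913). The gene larp7, whose product binds the small nuclear RNA that holds Hexim1 and P-TEFb, differed by +0.18 and did not pass. The 2 genes of the enzyme that caps this RNA did not pass on any of 5 probe sets, with mepcea at +0.02 and +0.21 and mepceb between 0.00 and +0.22.

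**Figure D4:**
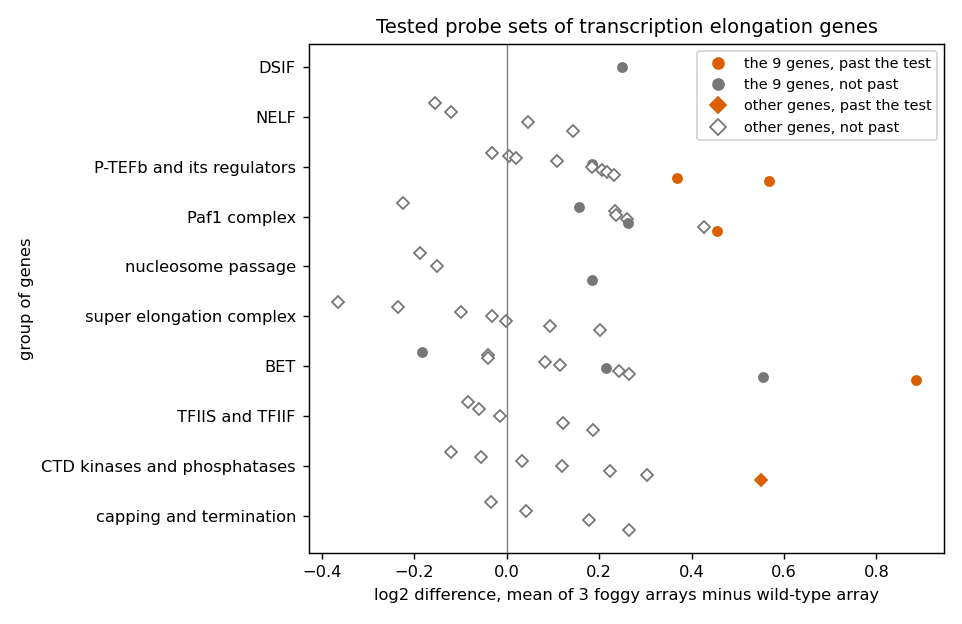
Mean log2 difference, foggy minus wild type, of the 60 tested probe sets of the wider elongation list by group, with circles for the 9 genes and diamonds for the others. Filled orange symbols are the 5 that passed, and the NELF probe sets lie on both sides of 0, between -0.16 and +0.14.

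The genes whose 3 foggy differences lay nearest those of supt5h were nenf, ptbp2b, pafah1b2, fam50a and nup58, with a root mean square distance of 0.0102 to 0.0189 on the log2 scale. Likeness was computed over 3 differences that share 1 wild-type array, among 3837 genes of at least median signal, and 98 of them lay within 0.05 of supt5h. Fewer genes reach the size of the hexim1 difference, which lay at percentile 99.3 of tested probe sets, against 87.5 for supt5h. The hexim1 pattern had 0 genes within 0.05. The nearest were ier5l, mknk2b, acvr2ba, si:dkey-51a16.9 and si:dkey-247k7.2, at 0.0581 to 0.0697. Likeness was taken on the brightest probe set of a gene, and other probe sets of some of these genes lay apart from it. The log2 differences of the tested probe sets spread over 0.35 for nup58 (2 probe sets), 0.15 for mknk2b (3), 0.39 for acvr2ba (3) and 0.47 for si:dkey-51a16.9 (2), while the other 6 genes had 1 tested probe set each.

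The foggy arrays resembled each other more (SD of their log2 differences 0.158 to 0.196) than any resembled the wild-type array (0.274 to 0.288), and foggy arrays 2 and 3 were the closest pair. Fits without foggy array 1 passed 1179 probe sets upward, against 256 with all arrays. The prior variance and the prior degrees of freedom of limma were both estimated anew in each fit. SEs did not all fall without foggy array 1. That of the faintest brd2a probe set rose from 0.160 to 0.177 and its log2 difference fell from 0.55 to 0.52, although this probe set passed there. A pass gained without foggy array 1 is therefore not a separate check of a probe set. Why more probe sets passed was not tested. Markers of neurons and neural progenitors were present in all 4 arrays. The summed intensity of 8 neuron genes was 9273 in wild type and 8506 to 8848 in the foggy arrays, and that of 6 progenitor genes was 7491 and 6869 to 7234. Of 13 neuron probe sets 1 was higher and 2 were lower by limma at the adjusted threshold, with log2 differences from -1.12 to +0.36. Of 10 progenitor probe sets 1 was higher and 1 lower, from -0.25 to +0.32. At an unadjusted p under 0.05, 3 neuron probe sets were higher and 5 lower, and 2 progenitor probe sets were higher and 2 lower. Over the array 2.36% were higher and 3.14% lower at the adjusted threshold, and 11.7% and 8.89% at the unadjusted one. Markers of other tissues were read in the same samples and were lower in foggy, so the samples labelled brain also held RNA of other tissues. All 3 foggy arrays lay below the wild type at every probe set of these other markers, against 28.4% of all tested probe sets. All 10 skeletal muscle probe sets (8 genes) fell, with a summed intensity of 5302 in wild type and 1703 to 1792 in the foggy arrays. All 7 red blood cell probe sets (6 genes) fell, from 10550 to between 2274 and 2415, as did all 3 cartilage probe sets (2130 to between 1001 and 1043) and all 5 of retina and lens (3378 to between 1572 and 1691). No marker was at 0 in any array. In tissue RNA, fewer cells of a type and less RNA per cell cannot be told apart, and the part of these shifts in the differences of the 9 genes was not tested.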

How the data were processed

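The authors deposited a linear intensity for each probe set, as read from the values of the table. How the probes were summarised is not given in the sources used here. These deposited intensities had a mean of 150.03 in each array after trimming 2% at each end, so they were used as deposited, and differences are relative to the other transcripts of an array. Control probe sets (115) and the 4651 with mean log2 under the 30th percentile were left out, and a pseudocount of 16.252 (20th percentile) was added. Symbols came from the platform annotation, updated by gene number for 10718 of 10802 singly named probe sets. The fit of 10851 probe sets used limma 3.58.1 under R 4.3.3 (eBayes with a variance trend, 2 residual and 7.89 prior degrees of freedom). Tests are two-sided, with Benjamini-Hochberg adjustment over all of them and a threshold of 0.05. A permutation of 4 arrays cannot give p below 0.25. In simulated data all 4 arrays, the wild type included, were given the spread of the foggy arrays. There 81 of 87 fitted probe sets changed by 1 on the log2 scale were recovered, and 35 of 94 changed by 0.5. Another 5 calls were false. A wild-type array that scatters more was not simulated. The number of arrays limits the precision. Alternatives were the pseudocount, the dim filter, 2 normalizations, the variance trend, a doubled wild-type SD and leaving out each foggy array. The text names every singly named probe set of the 9 genes and the called genes of the wider list. It also names the DSIF, NELF, P-TEFb and Paf1 members of that list, and the 5 nearest genes to supt5h and hexim1. The members and lists were chosen with earlier results of these data known.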

Additional observations from a re-analysis of the deposited data

How the results depend on the processing

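Of the 4 calls among the 9 genes, brd2a held under all 9 alternatives. All 4 held with a pseudocount of 1, under quantile normalization, under median centring and without foggy array 2 or 3, and the directions of the 12 tested probe sets held throughout. Without foggy array 2 or 3 the SEs of all 4 were larger than in the main fit. For brd2a they were 0.100 and 0.110, against 0.0750, yet its adjusted p was smaller. The prior variance and the prior degrees of freedom were both estimated anew in each fit, and the latter are given for the main fit only. A call kept there is therefore not a separate check of its strength. Without a filter on dim probe sets 2 held (brd2a and hexim1), with 3 probe sets higher in the wider list and 129 over the array; this adjusts over more probe sets (15502). Without the variance trend 1 held, with 1 higher in the wider list, and 27 higher and 137 lower over the array. With a wild-type SD of 2 times the foggy SD 1 held, with 1 higher in the wider list, and 3 higher and 44 lower over the array. Leaving out a foggy array gave 4 to 8 higher and 0 lower among the 9 genes, 5 to 16 higher and 0 to 1 lower in the wider list, and 213 to 1179 higher and 344 to 866 lower over the array; the upper ends are all without foggy array 1. Of uncalled probe sets near 0, that of mepcea ran from -0.0675 (without foggy array 2) to 0.1216 and that of mepceb from -0.1307 (without foggy array 3) to 0.0906. The causes were not tested. No paired analysis was possible, because there was 1 wild-type array and the labels name no pairs. With signals near the pseudocount, as at the dim cdc73 probe set, differences are understated.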
